A study of Bubalus bubalis with 12 samples.

Results

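The genes described here encode the proteins of the cytoplasmic ribosome. They were chosen by name, as array symbols beginning with RPL or RPS (including RPSA and the stalk protein RPLP0) that carried at least 2 probes, and 54 of the 6805 genes with 2 or more usable probes met the rule. Of these, 26 belong to the large subunit, RPLP0 among them, and 28 to the small subunit. Another 11 symbols of the family had 1 probe each and were not tested: RPL6, RPL10, RPL10A, RPL12, RPL13A, RPL15, RPL29, RPL31, RPL36A, RPL39 and RPS4X.

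The arrays measured where 2 histone modifications lay in the chromatin of ejaculated, cryopreserved sperm of water buffalo bulls (Bubalus bubalis). The high-fertile group held 3 bulls (HF2, HF3 and HF5) and the subfertile group held 3 bulls (SF1, SF4 and SF5), and no treatment, breed or age is given for them in the sources used here. From each bull 1 array carried DNA precipitated with an antibody to histone H3 dimethylated at lysine 4 (H3K4me2) and 1 array carried DNA precipitated with an antibody to histone H3 trimethylated at lysine 27 (H3K27me3), which made 12 arrays. On every array Cy5 marked the precipitated DNA, and Cy3 marked the bull's own input DNA. Values are given as log2(ChIP / input) with the median of the array set to 0, so each places a gene among the other genes of that array and is no absolute amount. In sperm DNA a mark on fewer cells and less of a mark in each cell cannot be told apart. Whether a bull gave 1 or several ejaculates is not stated, so the spread between bulls is the only replicate error.

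Each ribosome holds one copy of nearly every ribosomal protein, and in somatic cells the genes are transcribed at high and matched rates from short promoters that lie in CpG islands. H3K4me2 is found at promoters that are active or poised, and H3K27me3 is placed by Polycomb complexes at promoters held silent. In mature human and mouse sperm most histones have been replaced by protamines, and the histones that stay are enriched at CpG-rich promoters, many of them of housekeeping and developmental genes.

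The 54 genes carried 765 probes, 677 annotated to CpG islands, 84 to promoters and 4 to coding sequence. The number per gene ran from 2 to 79 with a median of 9.5, and RPL28 (79), RPL34 (50) and RPL26 (46, as many as RPS9) had the most. A CpG island probe was present in 51 of the 54 genes. Probes were designed on the cattle genome and their positions are those of the cattle build HGSC Btau_3.1. A position of exactly 60 bases was given for 721 of them, and the other 44 are placed in a longer window by the array's annotation. RPL19 has probes on more than 1 chromosome. Retrocopies of ribosomal protein genes are common in mammalian genomes, and the match of these probes to such copies was not tested.

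The sequences below are probes of the members whose values the results turn on, each the probe nearest the middle of the gene's densest stretch of probes. All are written 5′ to 3′ on the plus strand of HGSC Btau_3.1. The strand was read from overlapping neighbours, of which 600 of 600 pairs sharing at least 12 bases overlapped in that direction. Capitals mark CG dinucleotides, the site of DNA methylation in mammals and the feature that defines a CpG island. RPS19 lies at chr18:51094372-51094431, RPS26 at chr5:61847572-61847631, RPS21 at chr13:55581256-55581315, RPL9 at chr6:60945886-60945945 and RPS27A at chr11:39475962-39476021. All are CpG island probes.
RPS19: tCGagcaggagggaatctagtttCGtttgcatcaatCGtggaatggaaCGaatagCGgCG
RPS26: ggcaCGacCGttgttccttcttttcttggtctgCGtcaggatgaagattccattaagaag
RPS21: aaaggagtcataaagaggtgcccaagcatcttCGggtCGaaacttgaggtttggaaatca
RPL9: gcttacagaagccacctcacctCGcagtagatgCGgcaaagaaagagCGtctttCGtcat
RPS27A: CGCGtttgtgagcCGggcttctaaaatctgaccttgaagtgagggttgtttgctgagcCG
These probes hold 6 CG dinucleotides in RPS19, 3 in RPS26, 2 in RPS21, 4 in RPL9 and 4 in RPS27A. Both probes of RPL23A are promoter probes, with a mean G and C content of 40.8%, the lowest of the 54 genes. Over all probes of the members G and C made up 50.6% ± 3.84 (SD over 765 probes), against 49.9% ± 4.78 over 177372 probes of the array, and a probe held 3.26 CG dinucleotides on average against 2.72.

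Short motifs that occur in ribosomal protein promoters were searched on both strands of the 60-base probes. CCGGAAG, the core bound by ETS factors, was present in 4.18% of the members' probes, against 1.00% of all probes, and these probes came from 9 genes. AAGATGG, the YY1 core, was present in 2.09% of the members' probes against 1.23% of all probes, and GGGCGG, a GC box, in 3.01% against 2.41%. TATAAA was present in 2.88% against 2.18%, CTCTTTC in 3.92% against 2.21%, and CTTTCC in 7.84% against 7.55%. CTCTTTC and CTTTCC can overlap by 5 letters. Neighbouring probes share bases, so the counts are not independent, and a match describes letters in a probe and not a bound site.

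As a group the ribosomal protein genes lay near the middle of each array in the log2 ratios of both marks. The median member stood at 0.03 in HF2, -0.03 in HF3 and 0.24 in HF5, and at 0.07 in SF1, -0.04 in SF4 and 0.00 in SF5, for H3K4me2 on the log2 scale. For H3K27me3 it stood at 0.09, 0.09 and 0.12 in HF2, HF3 and HF5, and at 0.07, 0.01 and -0.05 in SF1, SF4 and SF5. The median of all 6805 genes ran from -0.02 to 0.11 for H3K4me2 and from -0.05 to 0.06 for H3K27me3 on the same arrays. Averaged over the 6 bulls the members' median was 0.05 ± 0.10 for H3K4me2 and 0.05 ± 0.06 for H3K27me3 (SD, n = 6), against 0.02 ± 0.05 and 0.00 ± 0.04 for all genes. In log2 ratio neither mark set the family as a whole apart from the median gene by more than the spread between bulls. Both signals behind the ratio stood higher in the median member than in the median gene on every array (log2, array median at 0). Over the 6 bulls the members' median ChIP signal averaged 0.28 for H3K4me2 and 0.29 for H3K27me3, against 0.08 and 0.05 for all genes. Their median input averaged 0.22 on the arrays of either mark, against 0.03. The reason was not tested.

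**Figure D1:**
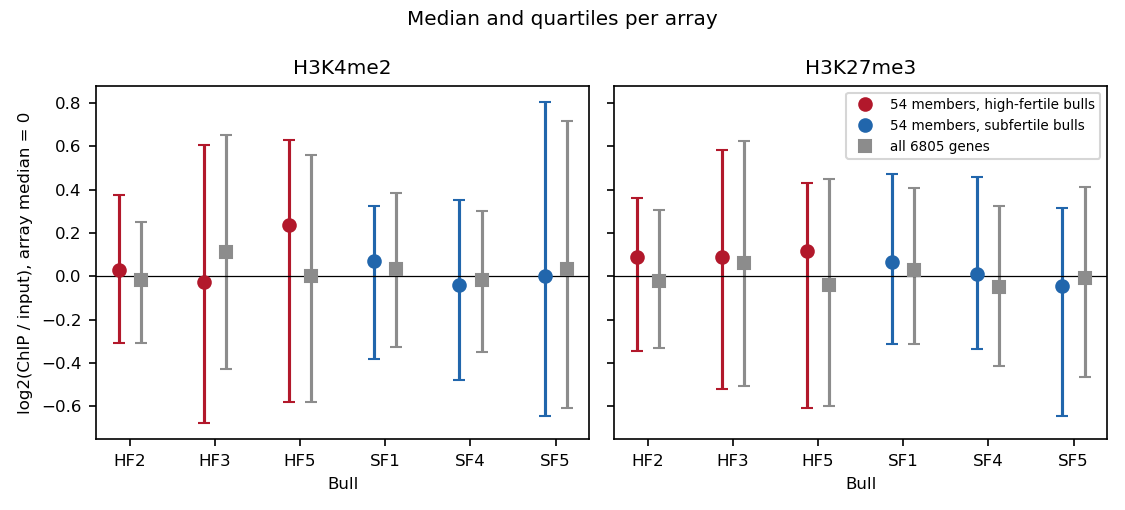
Median log2(ChIP / input) per array with bars from the lower to the upper quartile, for the 54 ribosomal protein genes (red circles, high-fertile bulls; blue circles, subfertile bulls) and for all 6805 genes (grey squares), H3K4me2 on the left and H3K27me3 on the right. The members' medians lie between -0.05 and 0.24, inside the quartiles of all genes on every array.

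Both subunits lay close to each other. The median large-subunit gene averaged 0.04 ± 0.14 for H3K4me2 and 0.09 ± 0.13 for H3K27me3, and the median small-subunit gene 0.04 ± 0.08 and 0.04 ± 0.09 (SD, n = 6 bulls each). For H3K27me3 the members' medians of the high-fertile bulls lay above those of the subfertile bulls without overlap, 0.10 ± 0.02 against 0.01 ± 0.06 (SD, n = 3 each), a difference of 0.086. That difference was 0.027 on CpG island probes alone and turned to -0.035 when the mean input of the 6 bulls replaced each bull's own. For H3K4me2 the high-fertile bulls had 0.08 ± 0.14, the subfertile bulls had 0.01 ± 0.05, and their ranges overlapped. Within bulls the H3K4me2 median less the H3K27me3 median was -0.01 ± 0.08 (SD, n = 6).

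Single members spread about as widely as other genes, and their order was largely not shared between bulls. For H3K4me2 the SD over the 54 members was 0.52, 0.90 and 1.18 in HF2, HF3 and HF5, and 0.57, 0.73 and 1.21 in SF1, SF4 and SF5. Across the 6 bulls the SD of the median member was 0.64 for H3K4me2 and 0.66 for H3K27me3, against 0.64 and 0.60 for the median of all genes. Between different bulls the members' values of one mark correlated with a median Pearson r of 0.12 for H3K4me2 (range -0.18 to 0.41 over 15 pairs of bulls, 54 genes each) and 0.03 for H3K27me3 (range -0.37 to 0.40). Bulls share no array or input, though HF5 and SF1 share a slide, and the genes of a pair share base composition and probe number.

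**Figure D2:**
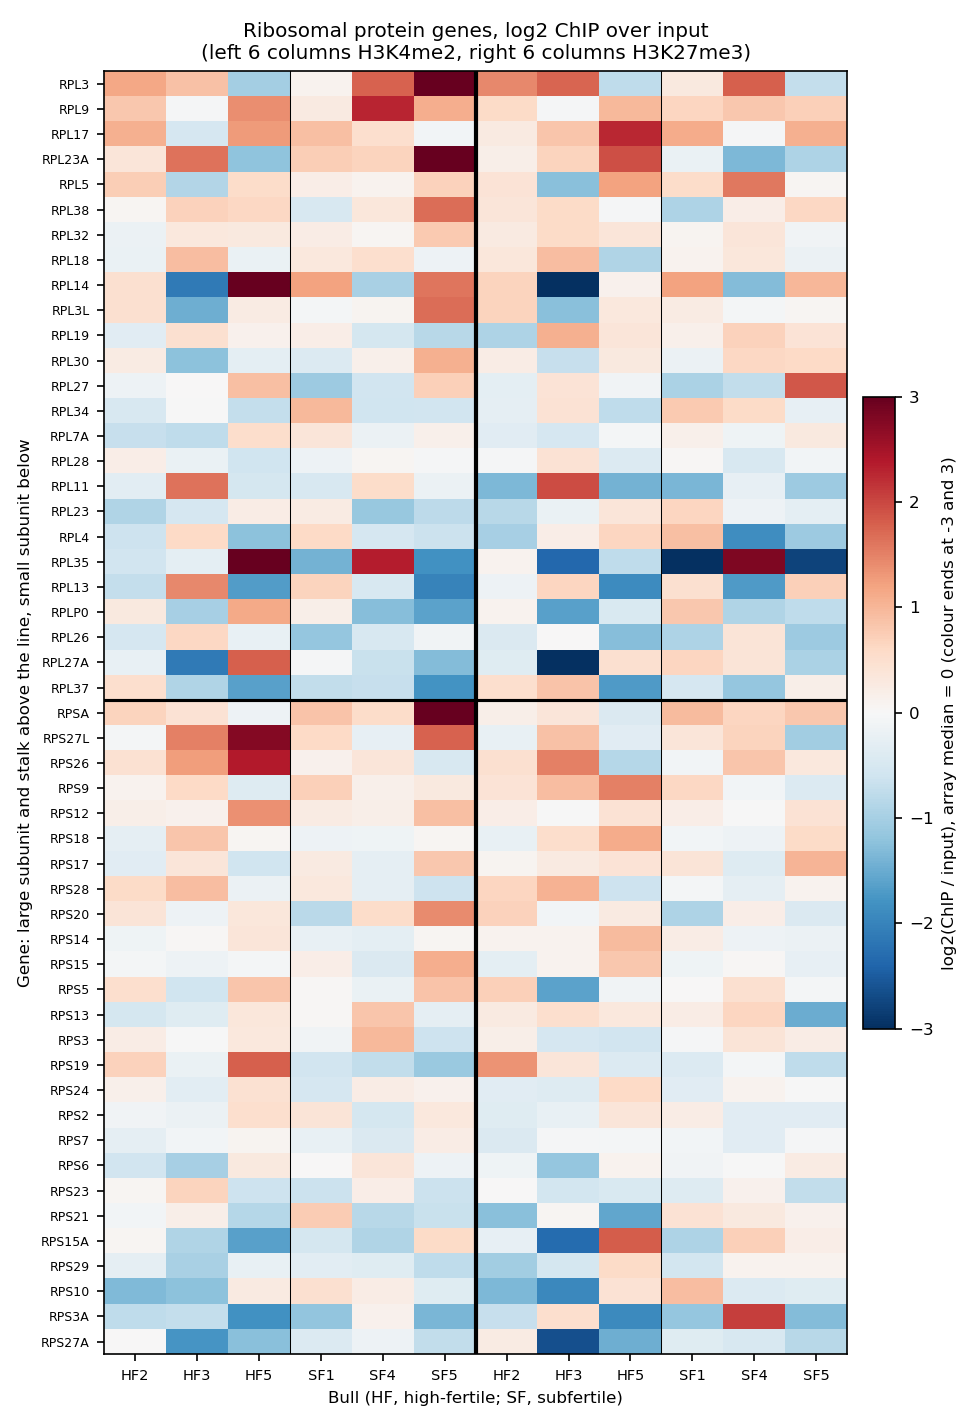
Each row is 1 of 51 ribosomal protein genes and each column 1 of the 12 arrays, with the colour giving log2(ChIP / input) relative to the array median, large-subunit and stalk genes above the black line and small-subunit genes below it. High-fertile bulls stand left of subfertile bulls within H3K4me2 (left 6 columns) and H3K27me3 (right 6 columns); RPL14 and RPL35 change sign between bulls with values past 3 in either direction.

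In 4 of the 6 bulls the log2 ratios of both marks followed each other over the members more closely than those of one mark did between any pair of bulls. Over the 54 members the arrays of both marks from one bull correlated with r of 0.72 in HF2, 0.80 in HF3 and 0.21 in HF5, and of 0.85 in SF1, 0.52 in SF4 and 0.22 in SF5. Both arrays of a bull lay on the same slide with input DNA of that bull, so in these ratios input and bull cannot be told apart. In ChIP signal alone r was 0.84, 0.66 and 0.45 in HF2, HF3 and HF5, and 0.85, 0.66 and 0.46 in SF1, SF4 and SF5. Between bulls the ChIP signal of one mark had a median r of 0.61 for H3K4me2 (up to 0.88) and 0.64 for H3K27me3 (up to 0.82). No bull thus lay above the closest pair of bulls for H3K4me2. HF5 and SF1 shared a slide. Over all genes, values were also taken as deviations from each mark's mean over the 6 bulls. The H3K4me2 arrays of HF5 and SF1 then correlated at no more than 0.06 and -0.05 with the H3K27me3 array of any other bull, against 0.44 and 0.79 with their own. Subtracting a mean over the same bulls itself lowers the correlations between bulls, and both arrays of a bull share slide and input. These values therefore cannot tell slide, bull and input apart. The input signal itself repeated closely: between both arrays of a bull the members' input values differed with an SD of 0.06 to 0.16 log2 units, while the ChIP values differed with an SD of 0.40 to 1.41. Those of HF5 (1.41) and SF5 (1.34) were the largest, and the H3K4me2 arrays of these bulls also had the lowest median ChIP signal before normalization, 588 in HF5 and 356 in SF5 against 932.5 to 1360 in the other 4 bulls. On these arrays the GC-rich member probes (53.3% or more) had a mean above that of the GC-poor ones (46.7% or less), by 0.39 and 0.36 log2 units for H3K4me2. In HF3 and SF1 the same difference was -0.37 and -0.47. The part of signal strength and base composition in the values of single members was not tested beyond the alternatives given at the end.

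At the level of single genes the question was whether any ribosomal protein gene stood above or below the array median in all bulls. No gene was called for either mark by limma at an adjusted p of 0.05 (Benjamini-Hochberg over 6805 genes, two-sided), which was 0% of all genes and 0 of the 54 members in H3K4me2 and likewise 0% and 0 in H3K27me3. The lowest adjusted p of a member was 0.806 for H3K4me2 and 0.823 for H3K27me3. At an unadjusted p under 0.05 there were 7 of 54 members for H3K4me2 beside 5.11% of all genes, and 3 of 54 for H3K27me3 beside 5.72% of all genes. The 7 were RPL9, RPSA and RPS27L above the array median and RPS3A, RPL37, RPS27A and RPS29 below it. The 3 were RPL9 and RPL17 above and RPS27A below. Of the 54, 30 had a mean above 0 for H3K4me2 and 26 for H3K27me3.

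Among large-subunit genes RPL9 stood above the array median in both marks. RPL9, a protein at the base of the stalk that elongation factors touch, had H3K4me2 values of 0.81, -0.03 and 1.40 in HF2, HF3 and HF5, and of 0.26, 2.27 and 1.08 in SF1, SF4 and SF5. Its H3K27me3 values were 0.57, -0.02 and 0.97 in the high-fertile and 0.64, 0.81 and 0.72 in the subfertile bulls. 10 of its 12 values were thus above the array median, HF3 being at the median in both marks, and the groups overlapped. Its mean was 0.97 (95% confidence interval 0.29 to 1.64, adjusted p = 0.887 by limma) for H3K4me2 and 0.61 (0.19 to 1.04, adjusted p = 0.823) for H3K27me3. The input of RPL9 lay below the array median on every array, from -0.93 to -0.03. In ChIP signal alone it ran from 0.08 to 1.52 for H3K4me2 and from -0.13 to 0.63 for H3K27me3.

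RPL17, which lines the exit tunnel for the nascent chain, averaged 0.92 ± 0.80 for H3K27me3, highest of the members, and 0.52 ± 0.70 for H3K4me2 (SD, n = 6). Its largest value was 2.27 in HF5 for H3K27me3, and 5 of 6 bulls were above 0. In ChIP signal alone HF2 (-0.35) and SF4 (-0.15) lay below the array median for this mark, and the other bulls ran from 0.41 to 2.15. The input of RPL17 lay below the array median on every array. RPL3, which sits near the catalytic centre, averaged 1.00 ± 1.41 for H3K4me2 and 0.63 ± 1.19 for H3K27me3, with -1.03 in HF5 and 3.1 in SF5 as its extremes for H3K4me2. Its ChIP signal alone lay below the array median on every H3K4me2 array but that of SF5 (2.86), and on every H3K27me3 array (-1.40 to -0.12). Its input was low, from -2.71 in SF4 to -0.35 in SF5 (log2, mean of both arrays). RPL23A, a docking site at the tunnel exit, averaged a ratio of 0.99 ± 1.64 for H3K4me2 and 0.05 ± 1.18 for H3K27me3. The means of RPL3 and RPL23A were no larger than the spread between their bulls.

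Lowest among large-subunit genes stood RPL37, a small zinc-binding protein, for H3K4me2, and RPL35, another protein at the tunnel exit, for H3K27me3. RPL37 had 0.51, -0.91 and -1.62 in HF2, HF3 and HF5 and -0.75, -0.68 and -1.79 in SF1, SF4 and SF5 for H3K4me2, below the median in 5 of 6 bulls, with a mean of -0.87 (adjusted p = 0.893 by limma). For H3K27me3 it averaged -0.30 ± 0.99. RPL35 averaged -1.0 ± 2.23 for H3K27me3, with -3.04 in SF1 and 2.79 in SF4, and is one of the most unstable genes of the family. RPL11, which with RPL5 carries the 5S RNA into the ribosome and restrains MDM2, averaged -0.58 ± 1.32 for H3K27me3 and 0.12 ± 0.84 for H3K4me2, each from 2 probes. Its partner RPL5 averaged 0.43 ± 1.00 and 0.23 ± 0.60 for the same marks. RPL26, a protein of the large subunit, averaged -0.56 ± 0.65 for H3K27me3.

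Small-subunit genes gave the lowest H3K4me2 mean of the family. RPS3A, near the exit channel for messenger RNA, had H3K4me2 values of -0.76, -0.70 and -1.81 in HF2, HF3 and HF5, and of -1.17, 0.14 and -1.37 in SF1, SF4 and SF5. 5 of 6 bulls were thus well below the array median, and the mean was -0.95 (95% confidence interval -1.54 to -0.35, adjusted p = 0.806 by limma) from 3 probes. Its H3K27me3 values did not follow, with 2.08 in SF4 and -1.90 in HF5 and a mean of -0.42 ± 1.47.

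RPS27A, which is made as a fusion to ubiquitin, lay low in both marks. It had 0.01, -1.76 and -1.26 in HF2, HF3 and HF5 and -0.40, -0.16 and -0.75 in SF1, SF4 and SF5 for H3K4me2. For H3K27me3 it had 0.25, -2.64 and -1.46 in the high-fertile and -0.36, -0.48 and -0.82 in the subfertile bulls. HF2 was the bull above 0 in either mark, and the subfertile values lay between the extremes of the high-fertile ones. The means were -0.72 (adjusted p = 0.893 by limma) and -0.92 (adjusted p = 0.839). FAU, which is made as a fusion to a ubiquitin-like protein and falls outside the naming rule, averaged 0.68 for H3K4me2 and 0.15 for H3K27me3.

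RPSA, the small-subunit protein also known as the laminin receptor, averaged 0.90 ± 1.09 for H3K4me2 and 0.41 ± 0.51 for H3K27me3, and 3.01 in SF5 was its highest H3K4me2 value. RPS27L, a paralog of RPS27, averaged 1.05 ± 1.17 for H3K4me2 with 2.76 in HF5, and 0.05 ± 0.72 for H3K27me3. RPS15A averaged -0.56 ± 0.78 for H3K4me2. RPS9 averaged 0.49 ± 0.70 for H3K27me3. A sign shared by all 6 bulls was about as rare as on the rest of the array. RPS12 alone was above 0 in all 6 bulls for H3K4me2 (0.12 to 1.38), 1 of 54 members beside 2.01% of all genes, and RPS29 alone was below 0 in all 6 (-0.97 to -0.21), beside 1.57%. For H3K27me3, RPS7 was below 0 in all 6 bulls (-0.43 to -0.04), 1 of 54 beside 1.88%, and no member was above 0 in all 6, beside 1.63% of all genes.

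The spread between bulls itself differed widely among the members. RPS7 and RPS14, both of the small subunit, had SDs over the bulls of 0.24 and 0.23 for H3K4me2, and RPL28 one of 0.28. For H3K27me3 the smallest SDs were 0.18 in RPS7, 0.20 in RPS12 and 0.24 in RPL32. The largest were 2.06 in RPL35, 2.01 in RPL14 and 1.64 in RPL23A for H3K4me2, and 2.23 in RPL35, 1.90 in RPL14 and 1.47 in RPS3A for H3K27me3. RPL14, a peripheral protein of the large subunit, had 0.47, -2.12 and 3.58 in HF2, HF3 and HF5 and 1.21, -0.97 and 1.61 in SF1, SF4 and SF5 for H3K4me2, from 21 probes. RPL35 had -0.57, -0.28 and 3.21 in the high-fertile and -1.41, 2.36 and -1.81 in the subfertile bulls, from 4 probes. Input also differed between bulls in both genes, from -2.04 in SF1 to 1.46 in HF3 for RPL14 and from -1.03 in SF4 to 2.49 in SF1 for RPL35 (log2, mean of both arrays). Its part in the spread was not tested. The rank correlation of a member's SD with its number of probes was -0.11 for H3K4me2 and -0.20 for H3K27me3 over 54 genes, a weak relation. Probes placed in a longer window made up 20 of 20 in RPS7, 5 of 6 in RPS14 and 2 of 2 in RPS12. RPL28 and RPL32 had 0 such probes. RPL5 (2 of 2) and RPS6 (6 of 6) had only such probes, with SDs of 0.60 and 0.53 for H3K4me2. Whether probe placement bears on the spread was not tested.

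The comparison the design was built for sets high-fertile against subfertile bulls. For H3K4me2 no gene was called (0% of 6805 genes, 0 of 54 members, limma, lowest adjusted p of a member 1.00), and 28 members had a higher and 26 a lower mean in high-fertile bulls. The median difference, high-fertile minus subfertile, was 0.01 over the members and -0.02 over all genes. At an unadjusted p under 0.05 stood 2 members, RPS19 and RPS26, beside 2.91% of all genes. In the same 2 genes the 3 high-fertile bulls were all above the 3 subfertile bulls, beside 3.48% of all genes, and no member had them all below, beside 3.1%. With 3 bulls against 3 an exact two-sided permutation test of 1 gene cannot fall below p = 0.1.

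RPS19, a head protein of the small subunit whose loss causes Diamond-Blackfan anaemia in humans, had H3K4me2 values of 0.69, -0.19 and 1.79 in HF2, HF3 and HF5, against -0.58, -0.74 and -1.12 in SF1, SF4 and SF5. The high-fertile bulls averaged 0.76 ± 0.99 and the subfertile bulls -0.81 ± 0.28 (SD, n = 3 each), and the groups did not overlap. In ChIP signal alone (log2, array median at 0) they did overlap, with -0.03, -0.53 and 1.80 against 0.05, -0.71 and -0.69. The input signal of these arrays did not overlap, with -0.75, -0.49 and -0.001 in the high-fertile against 0.54, 0.03 and 0.36 in the subfertile bulls. The difference in log2 ratio was 1.57 (95% confidence interval 0.30 to 2.85, unadjusted p = 0.0209, adjusted p = 1.00 by limma). Without HF5 it was 1.06, the lowest value when a bull was left out, and within the slide that HF5 shared with SF1 it was 2.37. For H3K27me3 the same gene had 1.34, 0.35 and -0.41 in high-fertile against -0.41, -0.06 and -0.76 in subfertile bulls, a difference of 0.84 (-0.33 to 2.01) with overlapping groups.

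The 22 probes of RPS19 fall into separate stretches with unequal differences. A first stretch of 8 probes over 127 bases had H3K4me2 means of 0.22, -0.88 and 1.05 in HF2, HF3 and HF5, against -0.67, 0.01 and 0.03 in SF1, SF4 and SF5, and the groups overlapped. A second stretch of 14 probes over 111 bases, starting 556 bases from the start of the first, had 0.97, 0.20 and 2.21 in the high-fertile against -0.53, -1.17 and -1.77 in the subfertile bulls. There the high-fertile mean exceeded the subfertile mean by 2.28, against 0.34 in the first stretch. The printed RPS19 probe lies in the second stretch, and on it HF3 stood at -0.59, level with SF1 at -0.62. The stretches were set apart after their values were seen, with gaps over 200 bases between probes, and their difference was not tested.

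**Figure D3:**
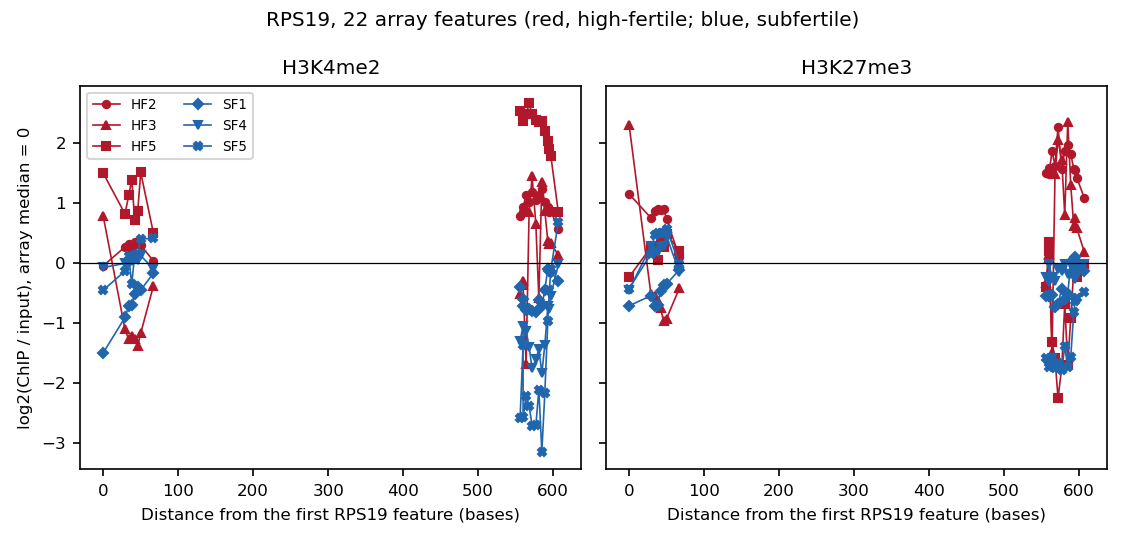
Log2(ChIP / input) of the 22 RPS19 probes against their distance in bases from the first, per bull (red, high-fertile; blue, subfertile), H3K4me2 on the left and H3K27me3 on the right. For H3K4me2 the bulls mix in the first stretch of 8 probes and separate in the second stretch of 14, where means were 0.97, 0.20 and 2.21 in high-fertile and -0.53, -1.17 and -1.77 in subfertile bulls.

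RPS26, which lies at the exit channel for messenger RNA and is also mutated in Diamond-Blackfan anaemia, had H3K4me2 values of 0.47, 1.26 and 2.39 in HF2, HF3 and HF5, against 0.12, 0.36 and -0.48 in SF1, SF4 and SF5. The groups did not overlap, and HF2 and SF4 lay closest, at 0.47 against 0.36. In ChIP signal alone they did not overlap either, with 0.82, 0.52 and 3.04 against 0.40, -0.04 and 0.01. The difference in log2 ratio was 1.37 (95% confidence interval 0.08 to 2.66, unadjusted p = 0.0402, adjusted p = 1.00 by limma), and without HF5 it was 0.86. For H3K27me3 it had 0.48, 1.5 and -0.86 against -0.07, 0.82 and 0.33, a difference of 0.02.

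RPLP0, the scaffold of the stalk, had the third smallest p upward for H3K4me2, with 0.30, -1.0 and 1.15 in HF2, HF3 and HF5 against 0.18, -1.28 and -1.60 in SF1, SF4 and SF5. Its groups overlapped and the difference was 1.05 (-0.51 to 2.61), which became 0.55 without HF5, 0.70 without SF5, 1.59 without SF1 and 1.62 without HF3. Downward stood RPSA with a difference of -1.16 (-2.69 to 0.38), RPS10 with -0.88 (-2.13 to 0.37) and RPL3 with -1.32 (-3.24 to 0.61). RPSA rested on SF5, at 3.01 against 0.86 in the next bull, and without SF5 its difference was -0.39. RPS10, in the head of the small subunit, turned to 0.11 when the mean input of the 6 bulls was used. Without HF5 its difference was -1.40. RPL3 stood at -0.60 without SF5, -0.64 without HF5 and -2.10 without SF1, and turned to 0.085 when HF5 and SF5 were both left out.

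For H3K27me3 no gene was called either (0% of 6805 genes, 0 of 54 members, limma, lowest adjusted p of a member 1.00), and the high-fertile mean was the higher one in 27 members and the lower one in 27. The median difference was -0.01 over the members and 0.01 over all genes. At an unadjusted p under 0.05 stood 2 members, RPL23A and RPS21, beside 4.07% of all genes. The high-fertile bulls were all above the subfertile bulls in 2 members, RPL23A among them, beside 4.56% of all genes, and all below in RPS21 and RPSA, 2 members beside 4.01%. These shares of the members, 3.7% each, are close to those of the array. In ChIP signal alone the groups overlapped in RPL23A (HF3 at -1.09, SF5 at -0.16), RPS21 (HF3 at -0.005, SF1 at -0.15) and RPSA (HF3 at 0.387, SF1 at 0.376).

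RPL23A had H3K27me3 values of 0.17, 0.68 and 1.95 in HF2, HF3 and HF5, against -0.19, -1.35 and -0.93 in SF1, SF4 and SF5. The difference was 1.75 (95% confidence interval 0.48 to 3.02, unadjusted p = 0.0127, adjusted p = 1.00 by limma), the largest of the family for this mark, and it rests on the 2 promoter probes without a CpG island. For H3K4me2 the same gene had 0.37, 1.64 and -1.21 against 0.74, 0.67 and 3.74, a difference of -1.45 (-3.65 to 0.75) with overlapping groups.

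RPS21, a protein of the small subunit, had H3K27me3 values of -1.26, 0.05 and -1.55 in HF2, HF3 and HF5, against 0.44, 0.29 and 0.12 in SF1, SF4 and SF5. HF3 at 0.05 and SF5 at 0.12 nearly met, and the difference was -1.20 (95% confidence interval -2.32 to -0.09, unadjusted p = 0.0377, adjusted p = 1.00 by limma). With 1 bull left out at a time the difference ran from -1.69 without HF3 to -0.89 without HF5. For H3K4me2 its difference was -0.01.

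RPSA had 0.17, 0.37 and -0.44 in HF2, HF3 and HF5 against 0.94, 0.63 and 0.81 in SF1, SF4 and SF5 for H3K27me3, a difference of -0.76 (-1.64 to 0.12) without overlap, and it was the one member below in the high-fertile bulls among the 3 of smallest p in both marks. Its 17 probes form a stretch of 15 and one of 2 that lies 527 bases from the start of the first. The mean difference was -0.91 in the first and 0.39 in the second for H3K27me3, and -1.36 and 0.37 for H3K4me2. RPS9, which helps to fix decoding accuracy, had a difference of 0.91 (-0.15 to 1.96) for H3K27me3, with 0.40, 0.92 and 1.52 in HF2, HF3 and HF5 against 0.62, -0.09 and -0.42 in SF1, SF4 and SF5. Of its 46 probes the first 28, over 404 bases, differed by 1.32, and the stretches of 13 and 5 probes farther on by 0.21 and 0.39.

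10 of the members carry more than 1 stretch of at least 2 probes with gaps over 200 bases, 25 stretches in all. In 8 of these 10 genes for H3K4me2, and in 4 for H3K27me3, the stretches differed in the sign of the high-fertile minus subfertile mean. Some of these means lay near 0, such as 0.04 in the second stretch of RPL30 for H3K4me2. The same count was not made over all genes, so it cannot set the members apart from them.

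**Figure D4:**
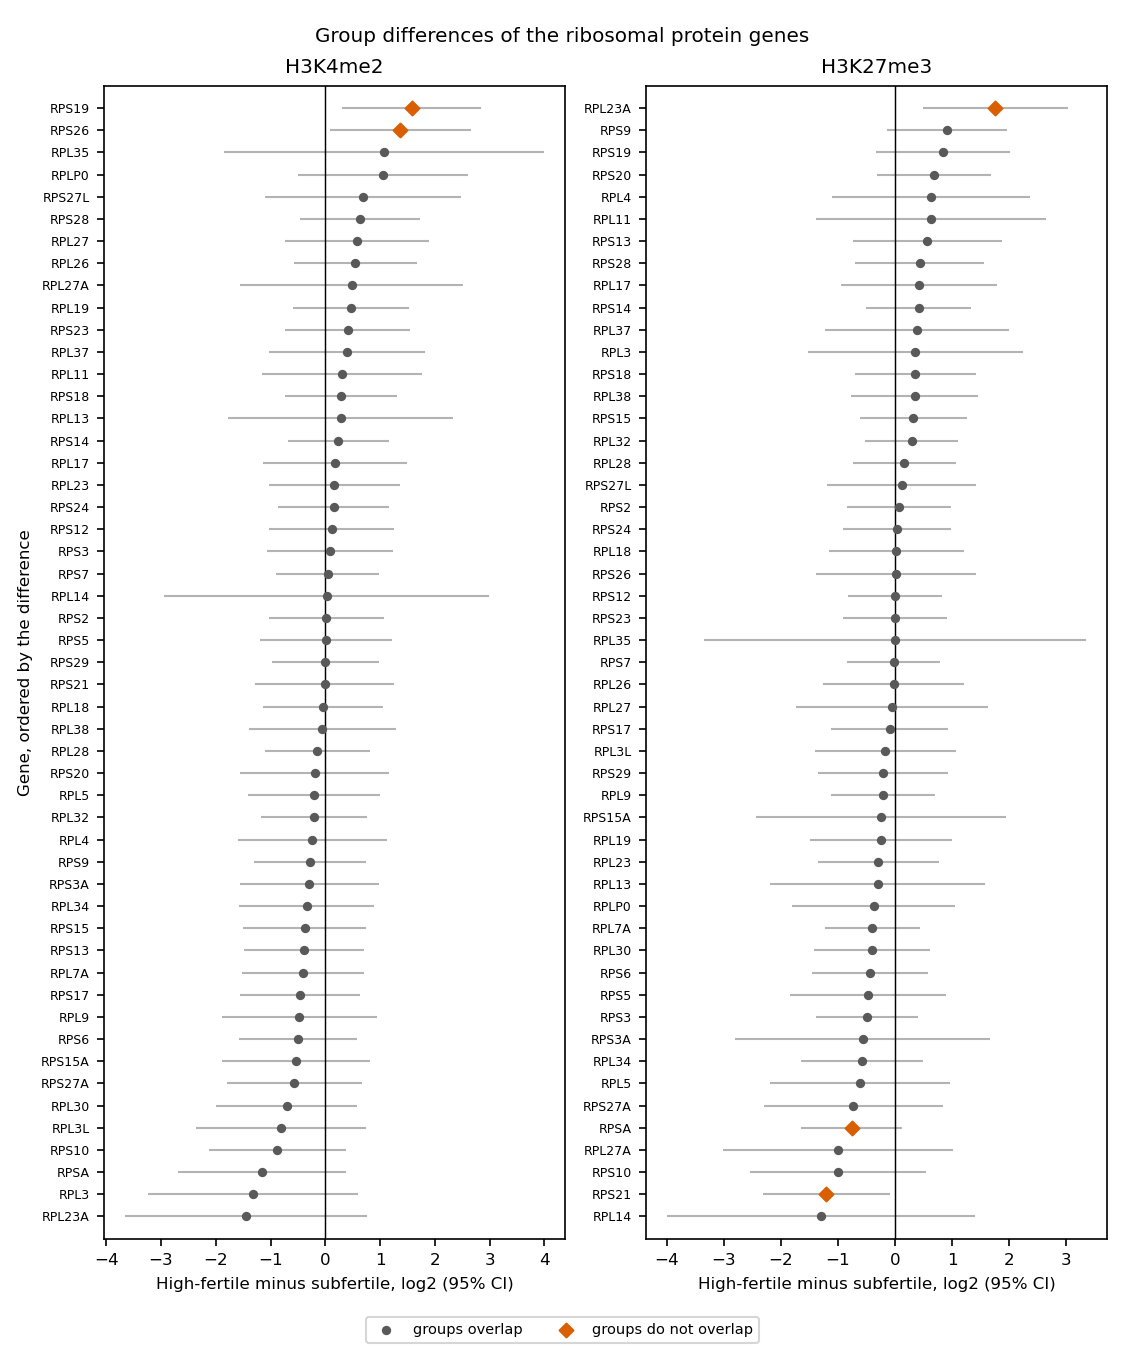
High-fertile minus subfertile difference in log2(ChIP / input) with 95% confidence intervals from limma for 51 of the 54 genes, H3K4me2 on the left and H3K27me3 on the right, ordered by size. Orange diamonds mark the plotted genes whose groups do not overlap, RPS19 and RPS26 for H3K4me2, and RPL23A, RPSA and RPS21 for H3K27me3.

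The intervals bound what the other members could hide. The half-width of the 95% confidence interval was 1.23 log2 units in the median member for H3K4me2 and 1.15 for H3K27me3, against 1.20 and 1.10 in the median gene, and it ran from 0.92 to 2.97 and from 0.82 to 3.35. Both limits lay within 1 log2 unit of 0 in 2 members for H3K4me2, RPS7 (-0.89 to 0.99) and RPS29 (-0.98 to 0.98), and in 5 members for H3K27me3, among them RPS7 (-0.84 to 0.79) and RPS12 (-0.82 to 0.83). For the remaining genes a difference of 1 log2 unit in one direction or the other was within the interval. Of the members with roles in signalling, RPS6, which S6 kinase phosphorylates, differed by -0.50 (-1.58 to 0.58) for H3K4me2 and -0.44 (-1.46 to 0.57) for H3K27me3. RPS3, a messenger RNA entry protein with a role in DNA repair, differed by 0.09 (-1.06 to 1.24) and -0.49 (-1.38 to 0.40). RPL3L, a paralog of RPL3 made in striated muscle, differed by -0.80 (-2.36 to 0.75) and -0.17 (-1.40 to 1.06).

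The marks were compared over group means of all 12 arrays, with bull not in the model. No gene was called for H3K4me2 minus H3K27me3 (0% of 6805 genes, 0 of 54 members, limma, lowest adjusted p of a member 1.00), and at an unadjusted p under 0.05 there were 0 members beside 0.602% of all genes. H3K4me2 had the higher mean in 30 members and the lower mean in 24. The median difference was 0.06 over the members and 0.06 over all genes. H3K4me2 was higher in all 6 bulls in 1 of 54 members, beside 2.44% of all genes. RPL23, which with RPL5 and RPL11 can bind MDM2, was lower in all 6, with differences of -0.07, -0.30 and -0.13 in the high-fertile and -0.41, -0.98 and -0.47 in the subfertile bulls, 1 of 54 beside 1.1%. RPS27L had the smallest p, a difference of 1.00 (95% confidence interval -0.15 to 2.15), which rested on 3.1 in HF5 and 2.82 in SF5, the bulls of weakest H3K4me2 ChIP signal. Without HF5 it was 0.55 and without SF5 0.47. RPL23A differed by 0.94 (-0.41 to 2.29), RPL37 by -0.57 (-1.67 to 0.53) and RPL19 by -0.43 (-1.20 to 0.34). RPL23A stood at 0.41 without SF5, 0.53 without HF3 and 1.56 without HF5, and RPL37 at -0.22 without SF5 and -0.27 without HF3.

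The fertility difference was also compared between marks. No gene was called in this interaction (0% of 6805 genes, 0 of 54 members, limma), and at an unadjusted p under 0.05 stood 1 member, RPL23A, beside 0.661% of all genes. Its interaction was -3.20 (95% confidence interval -5.91 to -0.50, unadjusted p = 0.0239, adjusted p = 1.00 by limma). The within-bull differences behind it, H3K4me2 less H3K27me3, were 0.20, 0.96 and -3.15 in HF2, HF3 and HF5 against 0.93, 2.02 and 4.67 in SF1, SF4 and SF5, so HF5 and SF5 give most of it, and it was -1.96 without HF5 and -2.14 without SF5. Next stood RPS9 with -1.19 (-2.51 to 0.13), or -0.65 without HF5.

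Neighbouring probes show over what length a value holds. Between probes of one ribosomal protein gene whose starts lay under 15 bases apart, the median absolute difference in log2 ratio was 0.16 (median of 12 arrays, 1393 pairs in 41 genes). It was 0.33 at 15 to 30 bases, 0.48 at 30 to 60 and 0.59 at 60 to 120 bases. At 120 to 240 bases it was 0.87 (1975 pairs in 19 genes), beside 0.86 between probes of different ribosomal protein genes, each a median over the arrays. Array by array the pairs within a gene differed less, such as 0.96 against 1.28 in HF3 for H3K4me2. The exception was SF4 for H3K27me3, at 0.97 against 0.82. All genes of the array gave 0.17 under 15 bases, 0.61 at 60 to 120 and 0.86 at 240 to 480 bases. A gene mean over several stretches can therefore average values that differ. In RPL28 the 3 stretches had H3K27me3 differences between high-fertile and subfertile bulls of 1.78, 1.39 and -0.16, the last from 65 of its probes.

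**Figure D5:**
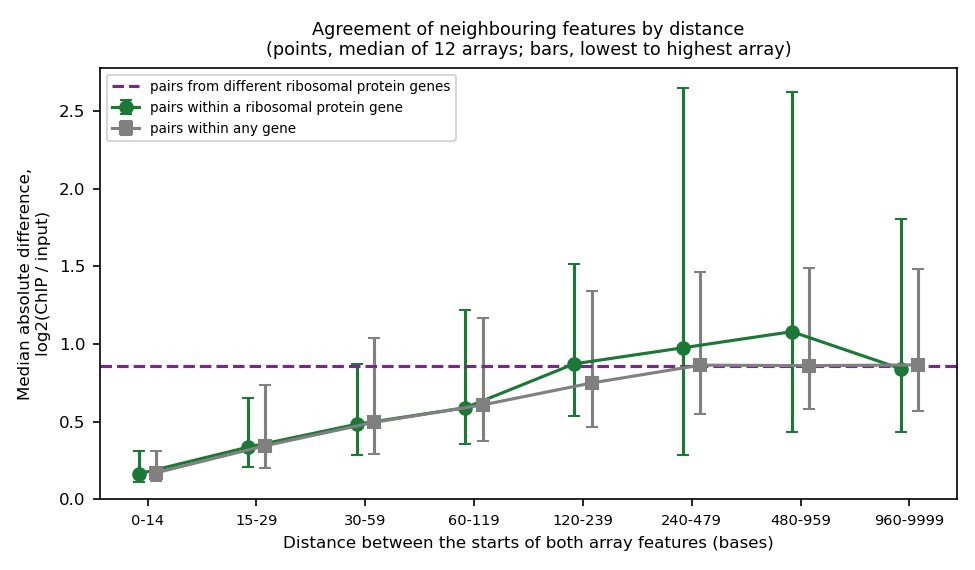
Median absolute difference in log2(ChIP / input) between pairs of probes by the distance of their starts in bases, within ribosomal protein genes (green circles) and within any gene (grey squares); points are the median of the 12 arrays and bars run from the lowest to the highest array. The dashed line at 0.86 gives pairs from different ribosomal protein genes, also as the median of the arrays. That median is 0.87 for pairs within a ribosomal protein gene at 120 to 240 bases, and 0.86 within any gene at 240 to 480 bases. Array by array, both lie below pairs from different ribosomal protein genes. The exceptions are SF4 for H3K27me3 in ribosomal protein genes and SF5 for H3K27me3 in all genes.

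Other genes of ribosome production and translation, in lists chosen with earlier results of these data known, gave no call in any of the 6 comparisons. Of 89 listed genes of ribosome biogenesis and ribosomal RNA transcription 56 were measured, and the high-fertile mean was higher in 30 and lower in 26 for H3K4me2 (median 0.03), and 26 higher and 30 lower for H3K27me3 (median -0.09). NLE1, a factor of large-subunit maturation, had the smallest p for H3K4me2, with 0.08, -0.65 and -1.0 in HF2, HF3 and HF5 against 1.17, 0.13 and 1.18 in SF1, SF4 and SF5. NOLC1, a nucleolar chaperone, had the smallest for H3K27me3, with -0.39, -1.24 and -1.88 against 0.23, 0.43 and 0.09. Of 38 mitochondrial ribosomal protein genes 23 were higher for H3K4me2 (median 0.19) and 20 for H3K27me3 (median 0.02). Of all genes 48.2% were higher for H3K4me2 and 50.7% for H3K27me3. A list of 36 genes was taken by symbols beginning with EIF, EEF, ETF1 or GSPT, and not all of them are translation factors. Of these 36 genes 11 were higher and 25 lower for H3K4me2 (median -0.21), and 11 higher and 25 lower for H3K27me3 (median -0.18). EIF3D, a subunit of the initiation factor that binds the small subunit, had the smallest p of these, with H3K27me3 values of -0.73, -0.22 and -1.01 in HF2, HF3 and HF5 against 0.89, 1.01 and 1.65 in SF1, SF4 and SF5. FAU had H3K27me3 values of -0.17, 1.21 and 1.36 in the high-fertile against -0.92, -0.48 and -0.08 in the subfertile bulls, a difference of 1.29 with groups that overlapped at HF2 and SF5.

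The label of the cells was checked on genes of late spermatids and of other cells that semen can hold. Of 15 listed sperm genes 6 were measured, and their median per array ran from -0.30 to 1.26 for H3K4me2 and from -0.42 to 0.35 for H3K27me3. Medians of 3 leukocyte genes ran from -0.54 to 0.58 for H3K4me2 and from -0.66 to 0.59 for H3K27me3. Those of 4 epithelial genes ran from -0.16 to 1.47 and from -0.31 to 0.84, and those of 3 somatic testis genes from -0.42 to 1.24 and from -0.51 to 0.90. The highest H3K4me2 medians of both the sperm and the epithelial genes were in SF5. These ratios within an array say where a mark lay and not which cells were present, and their part in the members' values was not tested.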

How the data were processed

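Chromatin was digested with micrococcal nuclease, precipitated, amplified by ligation-mediated PCR and hybridised to 2-colour Agilent arrays, per the labels' protocols. Scanner files were made with Agilent Feature Extraction 10.7, per the submitters' processing notes. The authors deposited red and green spot intensity, raw and after background subtraction and dye normalization, per the file headers. They also deposited a table of log2 values; its columns had medians of -0.13 to 0.10 and correlated with loess-normalized ChIP over input ratios at 0.98 to 1.00, so its direction is ChIP over input, and it served as an alternative. Quality flags of 0 and 1 are per the file headers.

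From the processed intensities of 177440 non-control probes, 177372 were kept because Feature Extraction called their input well above background on 6 or more of the 12 arrays. The log2 of Cy5 over Cy3 was centred on each array's median and averaged over the probes of a gene, at least 2. No dyes were swapped, so dye and ChIP cannot be told apart. The fits used limma's lmFit and eBayes (version 3.58.1, R 4.3.3) with Benjamini-Hochberg adjustment over 6805 genes at 0.05, two-sided. Fertility was fitted per mark, each mark's level against 0, and the marks and the fertility by mark interaction over group means of all 12 arrays, without bull in the model. The scripts were tested on simulated data. Bull numbers in the labels pair the arrays of both marks. Deviations from each mark's mean over the 6 bulls correlated at 0.24 to 0.79 within a bull, and at most 0.16 between bulls. Both ratios of a bull share its input, so the correlation within a bull cannot show that both ChIP samples came from the same animal. Subtracting the mean over the bulls also lowers the correlations between bulls.

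Members, gene lists and the rule for named genes were chosen with earlier results of these data known. The rule named, for each mark, the members of smallest p in each direction, of highest and lowest mean and of smallest and largest spread, those with most probes, those of smallest p between marks and in the interaction, and a fixed set of well-known proteins; members in counts of 5 or fewer were named after their values were seen. Alternatives were loess, normexp with an offset of 50, the deposited log2 table, other probe filters, the median of probes, CpG island probes alone, adjustment for base composition, a mean input, left-out bulls, slide and bull as blocks. The number of arrays limits the precision. The values of 3 of the 54 members are not reported here by name; they stay in the fits, counts and medians, and 51 genes are plotted.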

Additional observations from a re-analysis of the deposited data

Results flagged for a closer look

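RPL11 had an H3K27me3 value of 1.96 in HF3, while the other 5 bulls lay between -1.42 and -0.24, and the gap to the nearest bull took 0.652 of the whole range, past Dixon's critical value for 6 values at 95% confidence. Its input on that array was -2.20, against -0.42 to 0.61 on the H3K27me3 arrays of the other bulls (log2, array median at 0). The ChIP signal alone was -0.06 in HF3, beside -0.09 in SF4. Its H3K4me2 ratio in HF3, 1.64, was also its highest, with input again low at -1.71 and ChIP signal at 0.07, below 0.67 in SF4. Each such test passes by chance about 1 time in 20, and 18 of them were made on members and medians. About 1 flagged value is thus expected by chance.

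In 3 of the 54 ribosomal protein genes the difference between marks, H3K4me2 less H3K27me3, had one sign in all high-fertile bulls and the opposite sign in all subfertile bulls, beside 3.22% of all 6805 genes. RPLP0 had 0.19, 0.63 and 1.60 in HF2, HF3 and HF5 against -0.63, -0.37 and -0.85 in SF1, SF4 and SF5, with an interaction of 1.42 (95% confidence interval -0.74 to 3.59, adjusted p = 1.00 by limma). RPS9 had -0.29, -0.32 and -1.91 against 0.09, 0.24 and 0.72, with an interaction of -1.19 (-2.51 to 0.13, adjusted p = 1.00 by limma). RPL27A, named after its values were seen, had 0.14, 0.88 and 1.33 against -0.67, -1.06 and -0.33, with an interaction of 1.47 (-1.59 to 4.53, adjusted p = 1.00 by limma). None of the 3 interactions passed the threshold.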

How the results depend on the processing

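No ribosomal protein gene was called by limma in any of the 6 comparisons under any alternative run; at an unadjusted p under 0.05 the alternatives gave 0 to 2 members for H3K4me2 and 1 to 3 for H3K27me3 between high-fertile and subfertile bulls (2 and 2 as reported), 5 to 9 for the H3K4me2 level (7 as reported), 1 to 9 for the H3K27me3 level (3 as reported), 0 to 2 between marks (0 as reported) and 0 to 4 in the interaction (1 as reported). For the H3K27me3 level the 1 came without HF5 and SF5 and the 9 with the mean input. The lowest adjusted p of a member over all alternatives was 0.228, for the H3K27me3 level. Of 600 recomputed values of 36 gene results, 597 kept their direction and side of the threshold. The others turned: RPL19 between marks to 0.023 with both colours above background on all arrays, RPS10 between fertility groups for H3K4me2 to 0.11 with the mean input of the 6 bulls, and RPL3 to 0.085 without HF5 and SF5. The H3K27me3 difference of the members' median between high-fertile and subfertile bulls, 0.086, moved to 0.027 on CpG island probes and to -0.035 with the mean input. The cause was not tested for any of these. With bull as a replicate block 0 members were called between marks and 0 in the interaction (lowest adjusted p 0.934 and 0.959), so the block changed no call at the adjusted threshold; at an unadjusted p under 0.05 it gave 2 and 4 members. Slide as a random block also gave 0 calls in both; it could not be fitted within 1 mark, where 6 arrays lie on 5 slides, and the differences within the slide shared by HF5 and SF1 stand in its place. With 3 bulls a group, most intervals are wider than 1 log2 unit on either side, and HF5 and SF5 had the weakest H3K4me2 ChIP signal.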
